A study of Mus musculus with 8 samples.

Results

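The genes described here are 36 listed genes of glucose metabolism and of the response to low oxygen, 22 of glycolysis with glucose and lactate transport and 14 of the hypoxia response. Their transcripts were compared between CCR8+ and CCR8- Foxp3EGFP- CD4+ conventional T (Tconv) cells that had infiltrated B16-F10 tumors. The members were taken by gene symbol from a table of 11233 genes, of which 11032 had a mean of at least 10 normalized counts over the 8 libraries. Of the 36, 35 were found there, and all 35 (21 glycolysis and 14 hypoxia response genes) passed this limit. Eno1, an enolase gene, was not analysed here.

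B16-F10, a transplantable mouse melanoma line, was grown under the skin of Foxp3EGFP-DTR mice aged 8 to 14 weeks. The Foxp3 locus of these mice drives EGFP together with a human receptor for diphtheria toxin (DTx), by which regulatory T (Treg) cells are ablated on injection and EGFP-negative cells can be sorted. All libraries of both groups came from DTx-treated animals, given 4 injections of 1 μg between day 7 and day 13 after implantation, with cells sorted on day 16. There were 4 CCR8+ and 4 CCR8- libraries, each population carrying the replicate numbers 1 to 4. The paper calls the replicates biological and places their isolation on the same day. The sources used here do not say whether a number stands for a mouse or whether animals were pooled.

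Glycolysis splits glucose into pyruvate in the cytosol, and activated T cells use it to make ATP and building blocks, turning much of the pyruvate into lactate that is exported. Hypoxia-inducible factor 1α (HIF-1α) is a transcription factor that is degraded when oxygen is plentiful and accumulates when oxygen is low or after T cell receptor signals. It binds hypoxia response elements, whose core is ACGTG or GCGTG, and raises glucose transporters, glycolytic enzymes and genes that restrain mitochondrial use of pyruvate, so that the glycolysis and hypoxia lists are not independent of each other.

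The promoter sequences of 5 members are shown because the groups did not overlap in the expression of these genes and because the windows differ in how many core elements they hold. They are 5 of the 10 such members, picked after their values were seen. Each is the 250 bases before the RefSeq start site on GRCm38.p6, written 5′ to 3′ on the strand of the gene, with the core ACGTG or GCGTG on either strand in capitals. Overlapping matches run together in the capitals. None of the 5 windows held CACGTG, the E-box that MYC binds and that contains one of these cores. Of the 10 members, only Hif1a had a window with it, and some members whose groups overlapped, such as Ldha, had it too. The windows are chrX:106186850-106187099 (plus strand) for Pgk1, chr19:41911621-41911870 (plus strand) for Pgam1, chr6:124814159-124814408 (minus strand) for Tpi1, chr8:45999851-46000100 (minus strand) for Ankrd37 and chr14:45318573-45318822 (minus strand) for Ero1l.
Pgk1: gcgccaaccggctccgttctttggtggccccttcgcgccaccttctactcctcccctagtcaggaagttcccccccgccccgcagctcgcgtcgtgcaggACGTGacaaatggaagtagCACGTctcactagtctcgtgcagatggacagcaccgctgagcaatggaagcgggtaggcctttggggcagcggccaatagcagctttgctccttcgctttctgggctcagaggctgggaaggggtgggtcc
Pgam1: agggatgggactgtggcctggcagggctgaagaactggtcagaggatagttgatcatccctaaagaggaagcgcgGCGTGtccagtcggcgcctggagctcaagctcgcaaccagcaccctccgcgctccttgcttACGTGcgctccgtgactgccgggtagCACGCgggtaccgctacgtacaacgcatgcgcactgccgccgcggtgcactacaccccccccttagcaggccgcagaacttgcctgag
Tpi1: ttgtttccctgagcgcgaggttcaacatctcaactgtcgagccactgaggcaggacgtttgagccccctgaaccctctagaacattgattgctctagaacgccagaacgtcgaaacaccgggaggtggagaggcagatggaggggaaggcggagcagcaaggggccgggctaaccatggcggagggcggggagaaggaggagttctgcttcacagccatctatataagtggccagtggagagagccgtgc
Ankrd37: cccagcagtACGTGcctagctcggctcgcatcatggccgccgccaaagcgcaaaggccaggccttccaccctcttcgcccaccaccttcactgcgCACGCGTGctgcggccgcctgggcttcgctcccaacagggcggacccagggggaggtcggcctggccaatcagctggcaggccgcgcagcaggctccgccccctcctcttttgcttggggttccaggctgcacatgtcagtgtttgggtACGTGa
Ero1l: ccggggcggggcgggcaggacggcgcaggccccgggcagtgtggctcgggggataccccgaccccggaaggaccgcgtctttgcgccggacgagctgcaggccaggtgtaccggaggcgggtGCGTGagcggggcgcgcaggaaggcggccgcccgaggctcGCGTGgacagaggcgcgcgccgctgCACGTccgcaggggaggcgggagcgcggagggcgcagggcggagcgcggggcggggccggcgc

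The Pgk1 window held 2 matches, Pgam1 3, Ankrd37 4, Ero1l 3 and Tpi1 0. Promoters were found in the RefSeq table for 32 of the 35 members. Of the 46 windows of these 32 genes, 80.4% held at least 1 core element, against 56.2% of the 10816 windows of tested genes and 38.6% of all 32851 windows of the table. The share was 80.0% for glycolysis and 81.2% for hypoxia response genes. It was 76.9% of 13 windows among members whose groups did not overlap in expression and 81.8% of 33 windows among the rest. A match is only a run of letters, and its absence in Tpi1 says nothing about binding elsewhere.

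The libraries held between 12067780 and 17802628 reads, and a gene with 3 reads stood at 2.21 to 3.42 normalized counts. Ccr8, the transcript of the sorted receptor, was at 2039, 1293, 6214 and 4637 normalized counts in CCR8- replicates 1 to 4 and at 7975, 6970, 42508 and 22965 in CCR8+ replicates 1 to 4, so the libraries followed their labels. All 10 T cell markers were present in each library, among them Cd4 at 6365 to 9823 normalized counts. CCR8- replicate 1 stood apart. It had reads for 8569 genes, the fewest of the 8, and 242 genes were at 0 there that reached 100 or more in every other library, against 0 to 44 such genes in the others. For several members that rest on this library, the value without it is given as well.

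Transcripts of glycolysis were higher in CCR8+ than in CCR8- Tconv cells for most steps of the pathway, although no single gene passed the limma test over all genes. The log2 fold change of CCR8+ over CCR8- cells was above 0 for 19 of the 21 glycolysis genes and 13 of the 14 hypoxia response genes, where 52.4% of all tested genes were above 0. Its median was 0.81 over the glycolysis genes, 0.40 over the hypoxia response genes and 0.04 over all tested genes. The 4 CCR8+ libraries all lay above the 4 CCR8- libraries for 7 glycolysis genes (Pfkp, Aldoa, Tpi1, Gapdh, Pgk1, Pgam1, Pkm) and 3 hypoxia response genes (Hif1a, Ankrd37, Ero1l). Among all tested genes 2.37% did so, and 2.03% did so in the other direction, which no member did. Of the 5 of these 10 genes whose promoters are not printed, Pfkp lies on GRCm38 at chr13:6579768-6648777 (minus strand) and Gapdh at chr6:125161715-125166467 (minus). Pkm lies at chr9:59656368-59679375 (plus) and Hif1a at chr12:73901375-73947530 (plus). For Aldoa the annotation record matched by symbol did not hold the RefSeq start sites, so no location is given for it.

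In limma, fitted over 11032 genes with Benjamini-Hochberg adjustment, 0 of the 35 members passed an adjusted p of 0.05, as did 0% of all tested genes. The members' adjusted p lay between 0.83 and 0.9996. Without the replicate block Ccr8, the transcript of the sorted receptor, was not called either. Its log2 fold change was 2.37, with an adjusted p of 0.83 in limma and 0.15 in DESeq2 without the replicate block. At an unadjusted limma p under 0.05 there were 13 members, all higher in CCR8+ cells, 10 of glycolysis and 3 of the hypoxia response, beside 2.8% of all tested genes higher and 2.29% lower. On the recovered reads edgeR called 0 members and 0% of genes, and DESeq2 called 0 members and 0.245% of genes. The smallest adjusted p of a member in DESeq2 (no replicate block) was 0.063, for Tpi1. For a single gene the exact two-sided permutation test over the 70 assignments of the labels cannot go below 0.0286, which it gave for each of the 10 genes whose groups did not overlap.

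**Figure D1:**
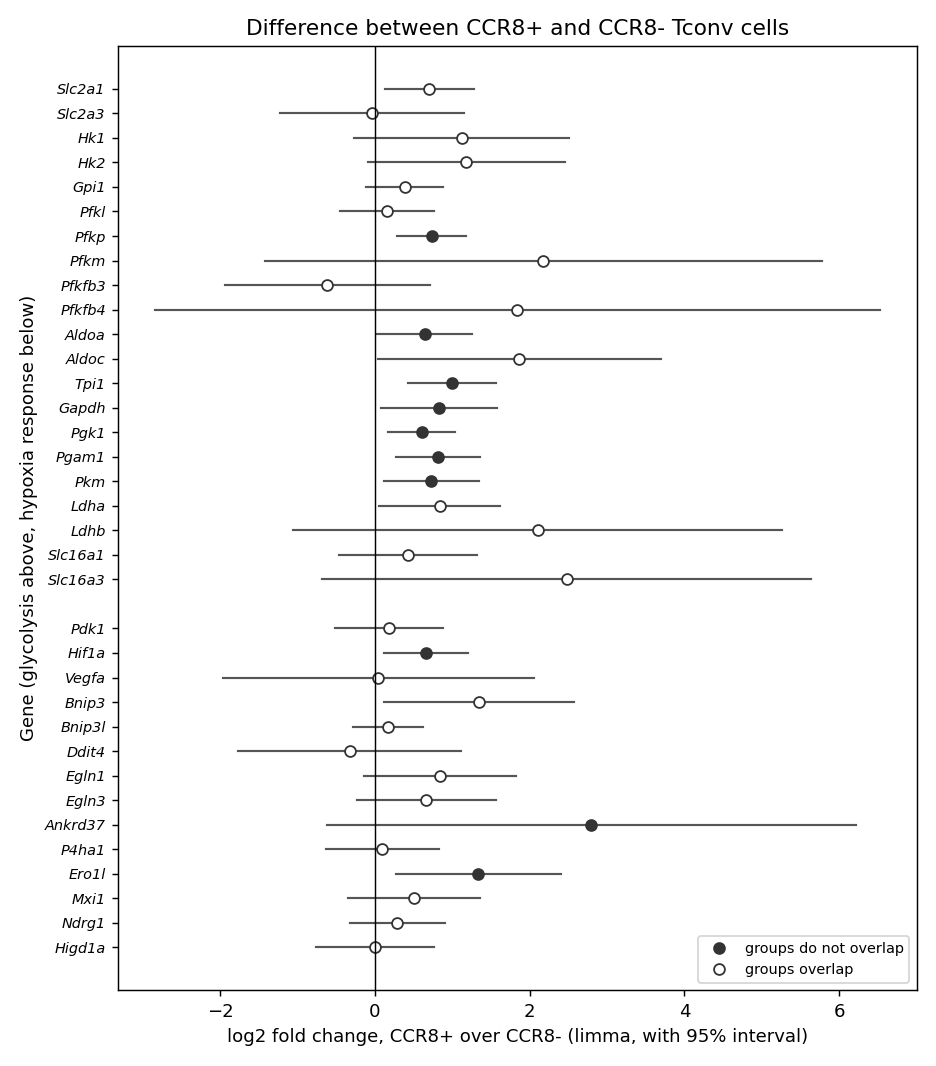
Log2 fold change of each member in CCR8+ over CCR8- Tconv cells on log2(normalized count + 1), with its 95% interval from limma (4 libraries per group). Of the 35 points 32 lie to the right of 0, and the widest intervals belong to genes with a CCR8- library at or near 0 reads, such as Ankrd37 and Slc16a3.

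Glucose enters T cells through the transporters GLUT1 (Slc2a1) and GLUT3 (Slc2a3). Slc2a1 was at 853, 1780, 1181 and 1404 normalized counts in CCR8- replicates 1 to 4 and at 2343, 2250, 1998 and 1678 in CCR8+ replicates 1 to 4. Only the lowest CCR8+ library fell below the highest CCR8- library. The log2 fold change was 0.70 and the exact permutation p was 0.0571 (two-sided, 4 against 4). Slc2a3 had a log2 fold change of −0.04, with values of 298 to 1678 in CCR8+ and 616 to 1915 in CCR8- cells. Per kilobase of exon, the ratio of Slc2a1 to Slc2a3 levels was 1.70 to 8.15 in CCR8+ and 0.541 to 2.77 in CCR8- libraries, ranges that overlap.

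Hexokinases trap glucose in the cell as glucose 6-phosphate. Hk2, the inducible form, was at 296, 190, 256 and 606 normalized counts in CCR8- replicates 1 to 4 and at 292, 454, 1665 and 1052 in CCR8+ replicates 1 to 4. The groups overlapped, since CCR8+ replicates 1 and 2 lay within the CCR8- values. The log2 fold change of Hk2 was 1.18 (exact permutation p = 0.171, two-sided), and 0.76 without CCR8+ replicate 3. Hk1, the constitutive form, had 1.12, and 0.43 without CCR8- replicate 1. Gpi1, which isomerizes glucose 6-phosphate, had 0.38.

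Phosphofructokinase commits sugar to glycolysis and has 3 genes with a subunit each, of which the platelet form Pfkp separated the groups. Pfkp was at 3235, 4506, 3767 and 4263 normalized counts in CCR8- replicates 1 to 4 and at 5837, 6820, 8032 and 5648 in CCR8+ replicates 1 to 4, with a log2 fold change of 0.74 (SE 0.20). All CCR8+ libraries exceeded all CCR8- libraries. Exons of Pfkp share 17.4% of their bases with Pitrm1 on the other strand, and the use of strand in counting is not given in the sources used here. The liver form Pfkl had 0.15 on the log2 scale. Per kilobase, Pfkp stood at 1.91 to 2.68 times Pfkl in CCR8+ libraries and at 0.809 to 2.47 times in CCR8- libraries.

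The muscle form Pfkm was, per kilobase too, the lowest of the 3 in each library, at 0, 140, 29.8 and 94.3 normalized counts in CCR8- replicates 1 to 4 and at 270, 93.2, 30.8 and 212 in CCR8+ replicates 1 to 4. Its log2 fold change of 2.18 rested on the 0 in CCR8- replicate 1, and was 0.62 without that library. Pfkfb3 and Pfkfb4 make and break fructose 2,6-bisphosphate, the activator of phosphofructokinase. Pfkfb3 was one of the 3 members below 0 on the log2 scale, at −0.61, the others being Slc2a3 and Ddit4. Pfkfb4 had 1.84 at 0 to 305 normalized counts, with 0 in 2 CCR8- libraries and 1 CCR8+ library. Leaving out 1 library each moved Pfkfb4 between 0.52 and 3.27, and it was 1.03 without CCR8- replicate 1.

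Aldolase cleaves the phosphorylated hexose, and triose phosphate isomerase interconverts both products. Aldoa was at 19807, 29527, 18998 and 33913 normalized counts in CCR8- replicates 1 to 4 and at 34384, 37593, 40064 and 43324 in CCR8+ replicates 1 to 4, for a log2 fold change of 0.64 (SE 0.28). The groups lay close at their edges, with CCR8- replicate 4 just below CCR8+ replicate 1. Aldoc had 1.87, and 1.38 without CCR8- replicate 1, and its groups overlapped. With an exon length for Aldoa that is uncertain, Aldoa made up 98.1% or more of the summed level of both genes per kilobase in each of the 8 libraries.

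Tpi1 had the smallest unadjusted p of the 35 members in limma. It was at 7061, 10944, 8322 and 14771 normalized counts in CCR8- replicates 1 to 4 and at 16872, 19512, 22329 and 20430 in CCR8+ replicates 1 to 4. Each CCR8+ library lay above each CCR8- library, and the log2 fold change was 1.0 (SE 0.26, 95% interval 0.42 to 1.57), or 0.83 without CCR8- replicate 1.

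Gapdh, Pgk1 and Pgam1 carry the oxidation of triose phosphate, the first ATP-forming step and the phosphoglycerate shift that follows. Gapdh was at 27225, 52303, 41175 and 63583 normalized counts in CCR8- replicates 1 to 4 and at 77402, 77082, 73772 and 84454 in CCR8+ replicates 1 to 4. The CCR8+ libraries were alike, while the CCR8- libraries spanned a wider range below them. The log2 fold change of Gapdh, a transcript often used as a reference in expression assays, was 0.83 (SE 0.34), and 0.60 without CCR8- replicate 1.

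Pgk1 was at 6505, 5746, 4753 and 6935 normalized counts in CCR8- replicates 1 to 4 and at 8260, 9647, 8566 and 9709 in CCR8+ replicates 1 to 4, a log2 fold change of 0.61 (SE 0.20). For this gene CCR8- replicate 1 was not the lowest library, and the value without it was 0.65. Pgam1 was at 1133, 1732, 1452 and 2452 normalized counts in CCR8- replicates 1 to 4 and at 3058, 2893, 2654 and 2846 in CCR8+ replicates 1 to 4, a log2 fold change of 0.81 (SE 0.25). Both genes separated the groups. Gapdh, Aldoa, Tpi1, Pgk1, Pgam1 and Ldha have near-identical processed pseudogenes elsewhere in the mouse genome, so that their levels from uniquely mapped reads are uncertain to that extent.

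Pyruvate kinase (Pkm) and lactate dehydrogenase (Ldha) end the pathway at pyruvate and lactate. Pkm was at 15813, 26294, 31566 and 25075 normalized counts in CCR8- replicates 1 to 4 and at 39985, 37787, 44598 and 36737 in CCR8+ replicates 1 to 4. No library of one group reached into the other, and the log2 fold change was 0.73 (SE 0.28). Ldha was at 29907, 65588, 43245 and 53705 normalized counts in CCR8- replicates 1 to 4 and at 87666, 78356, 106339 and 63645 in CCR8+ replicates 1 to 4. CCR8+ replicate 4 lay below CCR8- replicate 2, so that the groups overlapped by 1 library, with a log2 fold change of 0.84 (SE 0.35) and an exact permutation p of 0.0571 (two-sided).

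Ldhb, whose subunit favours the reverse reaction, was at 1.97, 132, 403 and 731 normalized counts in CCR8- replicates 1 to 4 and at 354, 291, 331 and 1151 in CCR8+ replicates 1 to 4. Its log2 fold change of 2.10 fell to 0.39 without CCR8- replicate 1. Per kilobase, Ldha was at 97.4% to 99.6% of the sum of Ldha and Ldhb in CCR8+ and at 98.1% to 99.99% in CCR8- libraries.

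Lactate leaves the cell through the monocarboxylate transporters MCT4 (Slc16a3) and MCT1 (Slc16a1). Slc16a3 was at 0.985, 351, 256 and 246 normalized counts in CCR8- replicates 1 to 4, the first of these a single read, and at 771, 612, 273 and 329 in CCR8+ replicates 1 to 4. Its log2 fold change of 2.48 (SE 1.44) was the largest of the glycolysis genes and became 0.69 without CCR8- replicate 1. Slc16a1 had 0.42. The groups overlapped for both transporters.

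**Figure D2:**
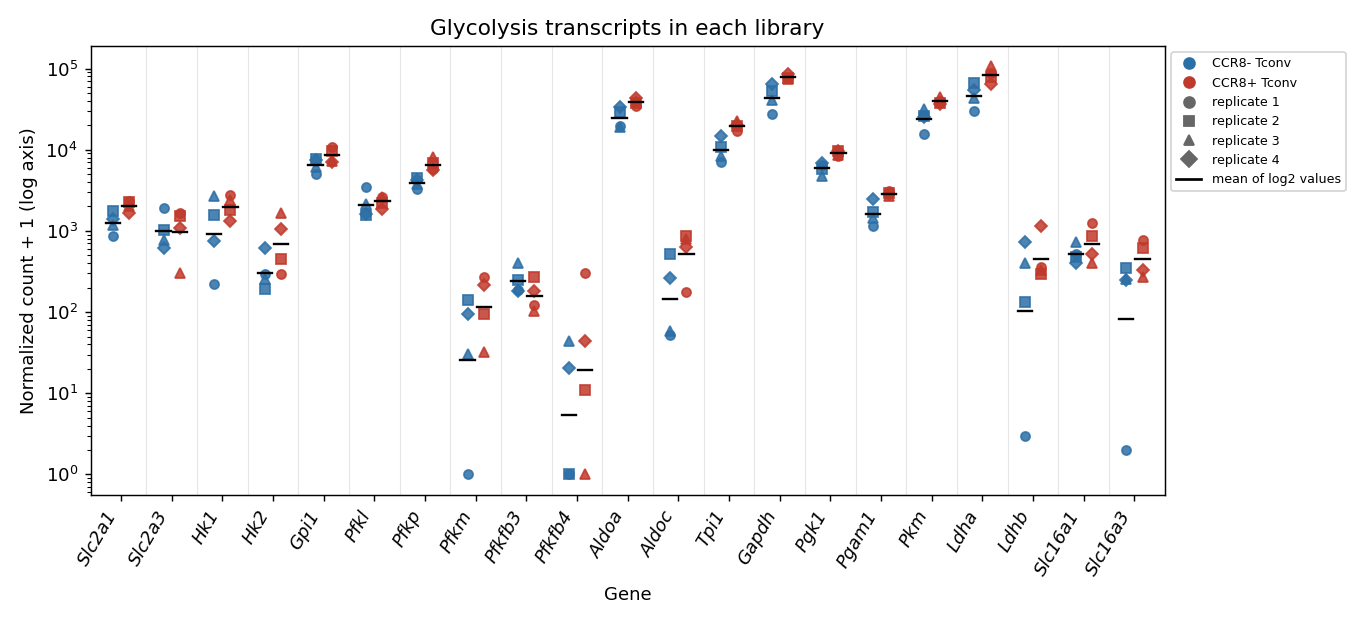
Normalized count + 1 (log axis) of each glycolysis gene in every library, CCR8- in blue and CCR8+ in red, with the replicate number as the symbol and a bar at the mean of the log2 values. For Pfkp, Aldoa, Tpi1, Gapdh, Pgk1, Pgam1 and Pkm all 4 red symbols stand above all 4 blue ones.

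Compared per kilobase of exon, the most abundant members were Gapdh, at a mean of 52293 normalized counts per kilobase in CCR8+ and 30817 in CCR8- cells, and Ldha, at 44328 and 25389. Pkm followed at 15305 and 9499, and Aldoa at 15143 and 9965. The exon length used for Aldoa rests on records matched by symbol, so its level per kilobase and its place after Pkm are uncertain. The genes of the lower pathway thus carried most of the list's reads. Together the 21 genes took 2.28%, 2.22%, 2.25% and 2.05% of the normalized counts in CCR8+ replicates 1 to 4, a mean of 2.20% ± 0.103 (SD, n = 4). In CCR8- replicates 1 to 4 they took 0.916%, 1.62%, 1.47% and 1.58%, a mean of 1.40% ± 0.326 (SD, n = 4). Gapdh and Ldha alone made up 46.4% to 55.6% of this sum per library, and the other 19 genes still took 0.980% to 1.03% of the library in CCR8+ against 0.492% to 0.733% in CCR8- cells. In bulk RNA, a larger share of cells with the transcript and more transcript per cell cannot be told apart.

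Among the hypoxia response genes, those of HIF-1α itself and of oxygen sensing come first. Hif1a was at 4220, 7153, 6595 and 5640 normalized counts in CCR8- replicates 1 to 4 and at 9535, 7735, 12746 and 7407 in CCR8+ replicates 1 to 4. The groups did not overlap, with CCR8- replicate 2 close below CCR8+ replicate 4, and the log2 fold change was 0.66 (SE 0.25). Exons of Hif1a share 8.77% of their bases with other annotated genes. The prolyl hydroxylases that mark HIF-1α for degradation, Egln1 and Egln3, are HIF targets too and had log2 fold changes of 0.84 and 0.66. Egln1 went to 0.33 without CCR8- replicate 1, and both genes overlapped between the groups.

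Ero1l, an oxidase that forms disulfide bonds in the endoplasmic reticulum, had 1 library far above the rest. It was at 4307, 3455, 3769 and 3154 normalized counts in CCR8- replicates 1 to 4 and at 6722, 6193, 32664 and 5288 in CCR8+ replicates 1 to 4. All CCR8+ libraries lay above all CCR8- libraries, and the outlying one was CCR8+ replicate 3. The log2 fold change was 1.34 (SE 0.48), and 0.73 without CCR8+ replicate 3. P4ha1, a collagen prolyl hydroxylase, had 0.10.

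Ankrd37, a small ankyrin repeat gene induced by HIF-1α, was at 0, 304, 163 and 173 normalized counts in CCR8- replicates 1 to 4 and at 463, 390, 348 and 319 in CCR8+ replicates 1 to 4. The groups did not overlap with or without CCR8- replicate 1, and the log2 fold change was 2.80 (SE 1.55) with that library and 0.88 without it. Of its exon bases 26.2% overlap Lrp2bp and Ufsp2 on the other strand.

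Bnip3 and Bnip3l, which mark mitochondria for removal, differed in their values. Bnip3 was at 194, 1094, 450 and 1579 normalized counts in CCR8- replicates 1 to 4 and at 1319, 1568, 2330 and 1321 in CCR8+ replicates 1 to 4. Only CCR8- replicate 4 reached into the CCR8+ range, and it lay above each CCR8+ library except that at 2330. The log2 fold change was 1.35 (SE 0.56), with an exact permutation p of 0.114 (two-sided). Without CCR8- replicate 1 it was 0.79. Of its exon bases 27.2% are shared with a transcript on the other strand. Bnip3l had 0.16.

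Pdk1 restrains the entry of pyruvate into mitochondria and is a usual readout of HIF-1α activity. It was at 510, 606, 468 and 559 normalized counts in CCR8- replicates 1 to 4 and at 668, 509, 872 and 460 in CCR8+ replicates 1 to 4. The groups overlapped, with a log2 fold change of 0.19 and a 95% interval of −0.51 to 0.89. Higd1a, a mitochondrial protein of the hypoxia response, was at 6922, 3876, 1917 and 4641 normalized counts in CCR8- replicates 1 to 4 and at 3293, 4093, 3387 and 5246 in CCR8+ replicates 1 to 4. Its log2 fold change was 0.00 with a 95% interval of −0.76 to 0.77, and 22.5% of its exon bases are shared with a transcript on the other strand.

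Vegfa, the angiogenic growth factor, had a log2 fold change of 0.04 at 37.5 to 195 normalized counts, with a 95% interval of −1.97 to 2.06. Ddit4, an inhibitor of mTOR complex 1, had −0.33, Mxi1, an antagonist of MYC, 0.51 and Ndrg1 0.29. Groups overlapped for all 4. The hypoxia response was therefore uneven over its members, with 3 of 14 genes separating the groups and Vegfa, Higd1a, P4ha1, Bnip3l and Pdk1 between 0.00 and 0.19.

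**Figure D3:**
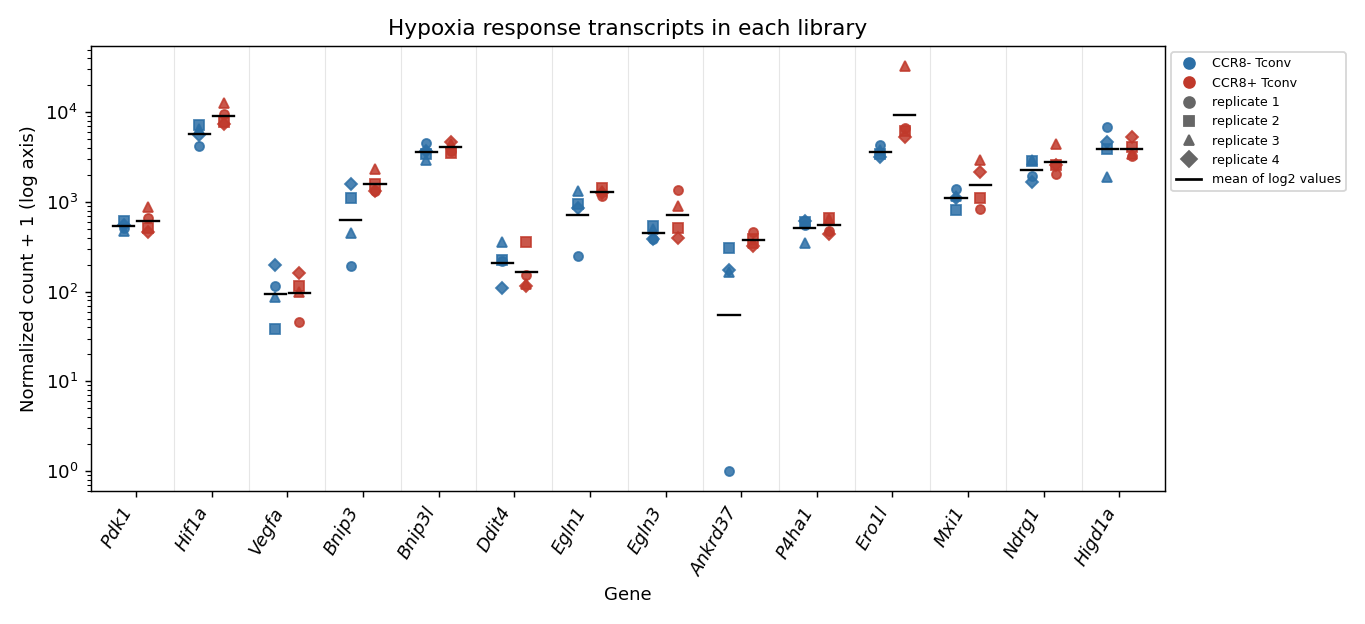
Normalized count + 1 (log axis) of each hypoxia response gene in every library, with colours, symbols and bars as for glycolysis. The 4 CCR8+ libraries lie above the 4 CCR8- libraries for Hif1a, Ankrd37 and Ero1l, and CCR8+ replicate 3 (triangle) reaches 32664 for Ero1l.

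The hypoxia response genes took 0.243%, 0.235%, 0.467% and 0.230% of the normalized counts in CCR8+ replicates 1 to 4 and 0.190%, 0.198%, 0.201% and 0.176% in CCR8- replicates 1 to 4. The library at 0.467% is CCR8+ replicate 3, in which Ero1l alone was at 32664 normalized counts. Without it the median log2 fold change of the 14 genes was 0.16, against 0.40 with it. When any 1 library was left out, the hypoxia response median lay between 0.16 and 0.50 and the glycolysis median between 0.60 and 0.91. The glycolysis value of 0.60 was that without CCR8- replicate 1.

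Libraries with the same replicate number were also set against each other. The CCR8+ library was the higher in 4 of 4 same-numbered pairs for 11 glycolysis genes, namely Slc2a1, Pfkp, Aldoa, Aldoc, Tpi1, Gapdh, Pgk1, Pgam1, Pkm, Ldha and Slc16a3, and for the hypoxia response genes Hif1a, Ankrd37 and Ero1l. Of all tested genes 8.44% did so. No member was lower in 4 of 4, as 8.1% of all tested genes were. The median log2 difference of the glycolysis genes was 1.34, 0.57, 0.50 and 0.42 in pairs 1 to 4, and that of the hypoxia response genes 0.23, 0.26, 0.88 and 0.24. The largest glycolysis median was thus in the pair with CCR8- replicate 1, and the largest hypoxia median in the pair with CCR8+ replicate 3.

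Macrophages are themselves glycolytic, and RNA of macrophages was present in libraries of both populations. Lyz2, a lysozyme gene of myeloid cells, was at 14.8, 1044, 449 and 28853 normalized counts in CCR8- replicates 1 to 4 and at 19993, 7616, 1396 and 7266 in CCR8+ replicates 1 to 4. C1qa, a complement gene of tissue macrophages, was at 1.97, 279, 55.3 and 3230 in CCR8- and at 291, 1017, 138 and 1196 in CCR8+ replicates 1 to 4. The populations overlapped for both genes, and the CCR8- libraries ranged more widely than the CCR8+ libraries. The log2 fold changes of Lyz2 and C1qa were 3.20 and 2.09 in limma and 0.25 and −0.42 in edgeR.

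Of 19 macrophage markers listed 18 were in the table, and 17 of the 18 had a log2 fold change above 0, with a median of 2.11, but none separated the groups and limma called 0 (Benjamini-Hochberg). The size of this difference depended on single libraries. Without CCR8- replicate 1, 15 of 18 were above 0 and the median was 0.61. Without CCR8- replicate 4, 17 of 18 were above 0 with a median of 3.62. Without CCR8+ replicate 3, 17 of 18 were above 0 with a median of 3.08. On the recovered reads 12 of 18 were above 0, with a median of 0.30 in edgeR and 0.29 in DESeq2, and C1qa turned to −0.42 in edgeR. Their summed level was 0.0032%, 0.0444%, 0.0168% and 0.689% of the library in CCR8- replicates 1 to 4 and 0.273%, 0.187%, 0.0290% and 0.213% in CCR8+ replicates 1 to 4. Between 0 and 6 markers were at 0 in a CCR8- library and between 0 and 4 in a CCR8+ library. Beside these values, CCR8- replicate 4 had the most macrophage RNA of all 8 libraries and a glycolysis share of 1.58%, below each CCR8+ library. CCR8- replicate 1 had the least macrophage RNA and the lowest glycolysis share, 0.916%. CCR8+ replicate 3 had less macrophage RNA than CCR8- replicate 2 (0.0290% against 0.0444%) and a glycolysis share of 2.25% against 1.62%. The part of macrophage RNA in the glycolysis share or in single genes was not tested.

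**Figure D4:**
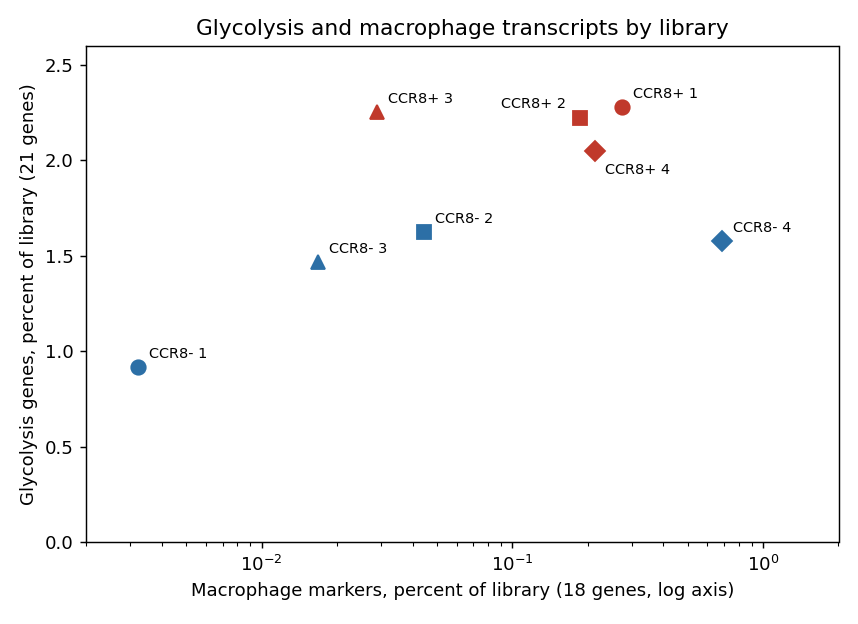
Summed level of the 21 glycolysis genes (percent of library, linear axis) against that of 18 macrophage markers (percent of library, log axis), 1 point per library with its population and replicate number. The 4 CCR8+ points lie at 2.05% to 2.28%, with macrophage shares of 0.0290% to 0.273%. CCR8- replicate 4 lies at 1.58% with the highest macrophage share, 0.689%. CCR8- replicate 1 is the lowest point on both axes, at 0.916% and 0.0032%.

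The remaining genes of these pathways, from lists that hold no member, gave fewer separated groups. Of 26 other glycolysis genes, which include glycogen enzymes and tissue-restricted forms, 16 were tested, and 10 were above and 6 below 0 with a median log2 fold change of 0.57. Without CCR8- replicate 1, where 7 of the 16 were at 0, there were 7 above and 9 below 0, and the median turned to −0.08. None separated the groups. The largest values were those of the sugar transporter Slc2a6 (2.31), the myeloid hexokinase Hk3 (2.04) and Pfkfb1 (1.98), which went to 0.58, 0.82 and 0.62 without CCR8- replicate 1. The pentose phosphate pathway, which branches off at glucose 6-phosphate, had 5 of 6 tested genes above 0 and a median of 0.14, and 2 of 6 with a median of −0.04 without that library. Its first enzyme G6pdx had 1.96, and −0.13 without CCR8- replicate 1, while Tkt, a transketolase, had 0.53 and Rpe, an epimerase, −0.24.

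For the entry of pyruvate into mitochondria 9 of 13 genes were above 0, with a median log2 fold change of 0.09, close to that of all tested genes. The extremes were the kinases Pdk4 (2.99) and Pdk2 (−2.80) and the phosphatase Pdp1 (−1.02), all of which act on pyruvate dehydrogenase. Pdk4 averaged 88.1 normalized counts in CCR8+ and 5.11 in CCR8- cells, and Pdk2 averaged 6.96 and 74.2, so both were low transcripts. Leaving out 1 library each, Pdk4 lay between 1.93 and 4.56, Pdk2 between −4.13 and −1.44 and Pdp1 between −1.75 and 0.62, and Pdp1 was at 0.13 in both edgeR and DESeq2, so that its direction was not settled.

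Among 13 tested subunits and regulators of HIF other than Hif1a and the Egln members, 10 were below 0 and 3 above, with a median log2 fold change of −0.12. Without CCR8- replicate 1 the counts were 7 and 6, with a median of −0.17. Crebbp, a histone acetyltransferase that serves HIF-1α as a coactivator, separated the groups in the opposite direction to the members. It was at 522, 437, 423 and 547 normalized counts in CCR8- replicates 1 to 4 and at 98.4, 321, 317 and 383 in CCR8+ replicates 1 to 4, with a log2 fold change of −0.94. Its relative Ep300 had −1.06, and Arnt2, a partner subunit, had −1.49 (−2.66 without that library) at a mean of 11.1 in CCR8+ and 25.3 normalized counts in CCR8- cells.

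Other known HIF targets were mixed, with 12 of 18 tested genes above 0 and a median log2 fold change of 0.36. Without CCR8- replicate 1 there were 10 of 18 and 0.26, and without CCR8- replicate 4 13 of 18 and 0.63. Without CCR8+ replicate 3 there were 14 of 18 and 0.52. Stc2, a secreted glycoprotein, was at 0, 79.4, 88.6 and 34.1 normalized counts in CCR8- replicates 1 to 4 and at 143, 214, 682 and 149 in CCR8+ replicates 1 to 4. Its groups did not overlap, with a log2 fold change of 3.40, and 1.91 without CCR8- replicate 1. Cxcr4, a chemokine receptor that HIF-1α can induce, separated the groups the other way. It was at 848, 476, 651 and 662 normalized counts in CCR8- replicates 1 to 4 and at 290, 218, 258 and 286 in CCR8+ replicates 1 to 4, with a log2 fold change of −1.30 (SE 0.36). P4ha2 had −3.78 and Plod1 2.07, both collagen hydroxylases whose groups overlapped. In edgeR P4ha2 was at −1.76, and Plod1 was at 0.50 without CCR8- replicate 1. No gene of these other lists was called by limma.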

How the data were processed

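RNA-Seq libraries of CCR8+ and CCR8- Tconv cells (4 each) were grouped by their labels. Per the study's methods, the authors used Cutadapt for trimming and hisat2 for alignment to NCBIM37 and counted reads with a unique position, and the submitters' processing notes also name FastQC, HTSeq, DESeq2 and mm9. Tool versions and strand use are not given in the sources used here. Each deposited value is a signal of 1 gene in 1 library, the number of reads over a factor shared by that library. Whole reads were recovered for 100% of values (tolerance 0.02 reads), at 12067780 to 17802628 per library. Limits of 3 reads cover counting error only. At 0 throughout were 20 genes, 1 name was duplicated and 0 columns were unused.

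The log2(value + 1) of genes with a mean of at least 10 entered limma (version 3.58.1, R 4.3.3) with an intensity trend. On this scale the added 1 shrinks fold changes of low genes, while a library at or near 0 reads can widen them. Ankrd37 was at 2.80 in limma and 1.23 in edgeR, and Pfkfb4 at 1.84 and 2.49. P-values measure the spread between these libraries. Alternatives were edgeR 4.0.16 and DESeq2 1.42.0 on recovered reads, other scalings, pseudocounts and limits, the replicate block and each library left out. Scripts were tested on simulated data.

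The members and lists were chosen with earlier results of these data known. Values per library are given for members whose groups do not overlap, the 3 of each list with the largest absolute fold change, the 3 with the highest mean, and Slc2a1, Hk2, Ldha, Pdk1, Hif1a and Bnip3. Genes of other lists are named where called, where groups do not overlap, or among their list's 3 largest changes. Ccr8, Lyz2, C1qa and Cd4 check the sort. Locations and exon lengths come from GENCODE annotation of GRCm38 and promoters from RefSeq, matched by symbol, since the authors' build was not used here for coordinates.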

Additional observations from a re-analysis of the deposited data

Results flagged for a closer look

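In 4 of 70 groups of 4 libraries (35 members in both populations), 1 library lay far from the other 3 relative to the range of the group. Chance marks about 1 group in 20 in this way. Among them are Ldhb at 1151 normalized counts in CCR8+ replicate 4, and Slc16a3 at 0.985 in CCR8- replicate 1. The others are Ankrd37 at 0 in CCR8- replicate 1 and Ero1l at 32664 in CCR8+ replicate 3. CCR8- replicate 1 holds 2 of the 4, and it is the library with the fewest detected genes.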

How the results depend on the processing

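The 35 members were examined in 21 settings each, except that Pfkfb4 (mean 52.5) was absent at a mean limit of 100. No alternative turned the direction of 31 of the 35. The exceptions have log2 fold changes near 0. Higd1a was at −0.0685 with libraries scaled to an equal total, −0.00062 with TMM scaling, −0.0708 with quantile normalization, −0.11 in edgeR and −0.12 in DESeq2. Vegfa was at −0.0245 with equal totals, −0.0388 in edgeR and −0.0506 in DESeq2, and Slc2a3 at 0.0923 in edgeR and 0.0848 in DESeq2. Leaving out 1 library each, Higd1a ranged from −0.34 to 0.27, Vegfa from −0.38 to 0.40, Slc2a3 from −0.31 to 0.52 and P4ha1 from −0.0875 to 0.20. The glycolysis median then lay between 0.60 and 0.91 and the hypoxia response median between 0.16 and 0.50, lowest without CCR8+ replicate 3. Scaling moved the median of all tested genes to between −0.03 and 0.04.

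The number of members whose groups did not overlap was 7 with equal totals (4.08% of all tested genes did not overlap in either direction, 4.4% as deposited), where Pkm, Hif1a and Ankrd37 no longer separated, and 7 with quantile normalization (4.31%), where Gapdh, Pkm and Hif1a did not. It was 9 with TMM scaling (4.3%, without Aldoa). With 1 library left out it was 10 to 13, while the share of all tested genes higher in CCR8+ cells without overlap went from 2.37% to between 3.45% and 4.7%. The cause was not tested. The medians of the other lists without each library and in edgeR and DESeq2 were added after seeing the data.

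With the replicate number as a block, DESeq2 called 4 members (Pfkp, Tpi1, Gapdh and Pkm, at 0.73, 0.99, 0.82 and 0.72) and 1.14% of all genes, while limma with the block called 0 members. Ccr8 was called by DESeq2 with the block (adjusted p = 2.1e-28), and its adjusted p in limma with the block was 0.052. Same-numbered libraries deviated together with correlations of 0.0682 to 0.217 (mean 0.133), differently numbered ones from −0.17 to 0.10, and 7 of 8 libraries correlated best with their own number. Since 1 pair was under 0.1 and no source says what a number stands for, the numbers were not taken to pair the libraries. Ero1l had no adjusted p in DESeq2 without the block. Differences in genes near 3 reads were not detectable at this depth.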

Other observations

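Genes upstream of glycolysis were examined as a list of 12 that act through MYC and mTOR. Of these, 7 had a log2 fold change above 0 and 5 below, with a median of 0.12, and limma called 0. Prkaa1 (2.08), Mtor (1.87) and Rptor (−1.87) had the largest values, and the first 2 of them went to −0.05 and −0.00 without CCR8- replicate 1, and Rptor to −1.22. Myc, named here after its values were seen, is a transcription factor that raises glycolytic genes in activated T cells, and was at 213, 462, 1575 and 463 normalized counts in CCR8- replicates 1 to 4 and at 1589, 975, 2455 and 711 in CCR8+ replicates 1 to 4. It was higher in 4 of 4 same-numbered pairs, but the groups overlapped through CCR8- replicate 3.

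Genes that respond to tissue dissociation were mostly lower in CCR8+ cells, with 6 of 7 below 0 and a median log2 fold change of −0.60, or 5 of 7 and −0.11 without CCR8- replicate 3. Dusp1, a phosphatase of the early stress response, was at 52454, 24654, 29457 and 26369 normalized counts in CCR8- replicates 1 to 4 and at 15712, 17789, 23307 and 17149 in CCR8+ replicates 1 to 4, without overlap. Melanoma markers had no steady direction. They were below 0 for 8 of 8 tested genes in limma, with a median of −1.14, but for 5 of 8 in edgeR, with a median of −0.06, and also for 5 of 8 without CCR8- replicate 4 (−0.17), CCR8+ replicate 1 (−0.27) or CCR8+ replicate 3 (−0.44). They stood at 0.00565% to 0.175% of the library in CCR8- and 0.00279% to 0.219% in CCR8+ cells. Limma called 0 genes of either list.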
